A study of Mus musculus with 21 samples.

Results

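The cytosolic ribosomal protein genes encode the protein parts of the ribosome that translates nuclear messages, as distinct from the mitochondrial ribosome. They were taken by symbol from the table of gene counts, as every row named Rpl or Rps with a number (with the suffixes a, l, x, l1 and al), the stalk genes Rplp0, Rplp1 and Rplp2, and Rpsa. This gave 85 members of the 34573 genes in the table, 52 of the large and 33 of the small subunit. The filter on low counts was passed by 81 members (49 large and 32 small), and every count of calls below is over these. Rpl10l and Rpl39l had no count in any library, Rpl3l had 1 count in 1 library, and Rps12l1 had at most 9 counts in any library.

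The cells were macrophages grown from the bone marrow of C57bl/6 mice aged 12 weeks, over 6 days in medium conditioned by L929 fibroblasts, which supplies the growth factor M-CSF. They were left untreated or given succinate or dimethyl malonate (DMM) for 3 h, and then kept without or with lipopolysaccharide (LPS) for 4 or 48 h. DMM is a cell-permeable ester that is hydrolysed to malonate, an inhibitor of succinate dehydrogenase, and LPS is a bacterial cell wall component sensed by Toll-like receptor 4. Doses were not given in the labels. No library carries a genetic change, and all share strain, age and culture. The unstimulated libraries of the 4 h and 48 h sets carry no hours in the table and were pooled as 3 control, 4 succinate and 4 DMM libraries. The stimulated groups held 2 libraries of LPS 4 h, 2 of DMM then LPS 4 h, 1 of succinate then LPS 4 h, 2 of LPS 48 h, 2 of DMM then LPS 48 h and 1 of succinate then LPS 48 h. Set and hours of LPS cannot be told apart, and the labels do not say whether libraries of a group came from separate cultures or animals. The p-values therefore speak of the spread among these libraries, and that spread may be technical.

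A ribosome consists of a small subunit, which reads the message, and a large subunit, which joins amino acids. Its proteins are made in nearly equal numbers, and most of their messages start with a C followed by a run of pyrimidines, the terminal oligopyrimidine (TOP) tract, through which the kinase mTORC1 and the RNA-binding protein Larp1 control their translation and storage. Most of these genes have processed pseudogenes, so reads can be shared between a member and its copies. In macrophages, activation by LPS is accompanied by large changes in glucose and succinate metabolism.

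Libraries held 662186 to 1546867 counts in 10629 to 13122 detected genes. The library labelled LPS 48 h number 1 held 38 counts of Saa3, an acute-phase gene induced by LPS, against 30 to 127 in unstimulated libraries and at least 41149 in the other stimulated ones. It was kept apart, which leaves LPS 48 h with 1 library. The macrophage markers Lyz2 and Csf1r were high in every library, while Mertk of the same list had 2 to 38 counts. Cd79a of B cells, Ly6g of neutrophils and the haemoglobin genes were at 0 in every library, and Cd79b and Ms4a1 of B cells had at most 1 count. S100a8 of the neutrophil list was at 0 in unstimulated libraries and reached 435 counts in stimulated ones. Dcn of the fibroblast list reached 64 counts. Among the unstimulated libraries, the 6 numbered 1 and 3 stood apart from the 5 numbered 2 and 4 in every treatment: Spp1, a secreted phosphoprotein, was at 64335 to 132621 against 21833 to 39321 CPM of total counts, and Emr1, the macrophage marker F4/80, at 1158 to 1801 against 2553 to 3479. Controls hold numbers 1, 3 and 4 only, so this split is uneven between the groups. Rows named as pseudogenes of members held 1.83 to 2.12 counts per 100 member counts in every library.

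The starts of member genes are shown here because the messages of this class are recognised by their first bases. RefSeq promoters (GRCm38.p6) were matched by symbol for 63 members, in 75 rows. Each window runs from 15 bases before to 15 bases from the annotated start, 5′ to 3′ on the gene's strand. Capitals mark the longest run of C and T that begins with C, where it has at least 5 bases. Rps6 (chr4:86857353-86857382, minus strand), Rpl38 (chr11:114668565-114668594, plus strand), Rps18 (chr17:33955651-33955680, minus strand) and Rps23 (chr13:90923107-90923136, plus strand) are among the members that fell most after DMM and LPS. Rplp0 (chr5:115559452-115559481, plus strand), Rpl7l1 (chr17:46782642-46782671, minus strand) and Rps27l (chr9:66946071-66946100, plus strand, the first of 2 annotated starts) did not pass the test there.
Rps6: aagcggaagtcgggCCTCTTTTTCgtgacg
Rpl38: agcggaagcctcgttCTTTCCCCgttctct
Rps18: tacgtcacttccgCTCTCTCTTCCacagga
Rps23: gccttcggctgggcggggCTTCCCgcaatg
Rplp0: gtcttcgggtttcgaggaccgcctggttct
Rpl7l1: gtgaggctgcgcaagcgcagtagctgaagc
Rps27l: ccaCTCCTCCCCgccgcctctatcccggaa
The longest run had 10 bases in Rps6, 8 in Rpl38, 11 in Rps18 and 6 in Rps23, and in Rps27l a run of 9 bases lay wholly before the annotated start. A run of at least 8 bases lay in 27 of the 75 member windows, 36.0%, against 9.26% of all 32851 windows. Over the whole promoter of 250 bases before and 50 after the start, on both strands, CCGGAAG (a core of sites bound by Ets factors) was present in 34.7% of member rows and 8.86% of all rows. CTCTTTC, whose letters can lie within the pyrimidine run, was present in 26.7% and 8.16%. These are matches of letters only.

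The members' share of all counts of a library was highest without LPS, lower with LPS, and lowest in DMM then LPS at 4 h. The control libraries gave 3.29%, 2.61% and 3.73% (mean 3.21% ± 0.566, SD, n = 3). DMM alone gave 1.93% to 3.31% (2.73% ± 0.587, SD, n = 4) and succinate alone 2.26% to 3.47% (2.93% ± 0.516, SD, n = 4). The unstimulated groups overlapped. LPS 4 h gave 1.60% and 1.69%, and succinate then LPS 4 h gave 1.54%. DMM then LPS 4 h gave 0.549% and 0.597%, 2.87-fold below LPS 4 h by the means of 1.64% and 0.573%. At 48 h the share was 1.57% with LPS, 1.70% with succinate then LPS, and 0.775% and 1.20% with DMM then LPS. Apart from the library kept apart, every stimulated library lay below every unstimulated one, and the 4 libraries of DMM then LPS lay below the other stimulated libraries. The library kept apart had 2.81%, within the unstimulated range. In bulk RNA, fewer cells of a kind and less RNA per cell cannot be told apart. In DMM alone the lowest share, 1.93%, was in the library where Gm10800, a predicted gene, took 15.7% of all counts; its part in that value was not tested.

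**Figure D1:**
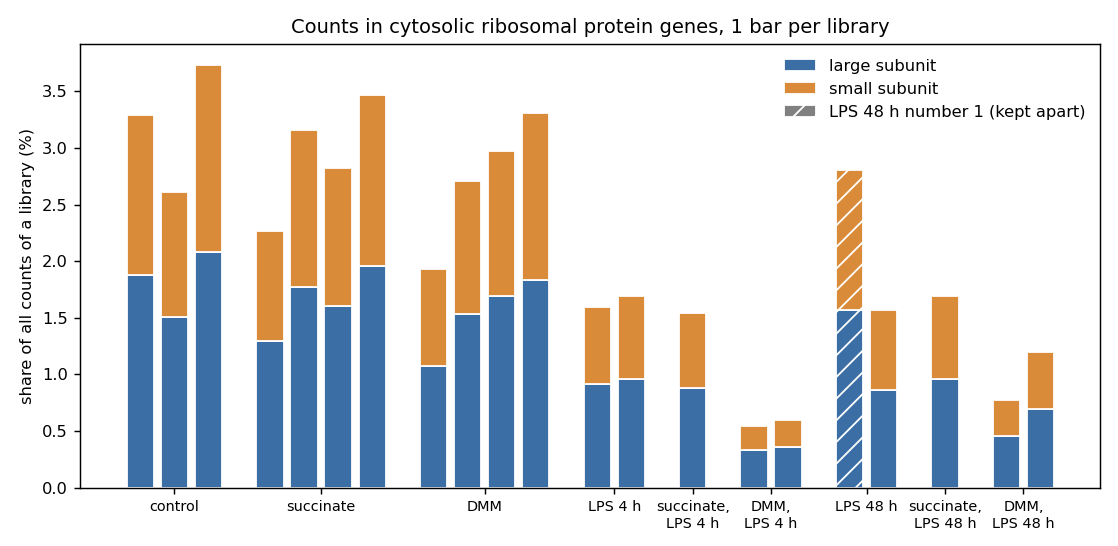
Share of all counts of a library that fell in the ribosomal protein genes (y axis, percent), 1 bar per library, split into large and small subunit members; groups are along the x axis and the hatched bar is the library kept apart. The 2 bars of DMM then LPS 4 h, 0.549% and 0.597%, are the lowest, and the unstimulated bars lie between 1.93% and 3.73%.

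LPS alone lowered few members beyond the spread once libraries were scaled by the trimmed mean of M values (TMM), which centres the bulk of genes. At 4 h, 6 of 81 members were lower and 0 higher than in controls by edgeR's quasi-likelihood test at 0.05, with p-values adjusted by Benjamini-Hochberg (BH) across all tested genes. Of all 6812 genes tested, 12.5% were called lower and 15.4% higher, so the members' share was below the background. The median log2 fold change of the members was -0.37 and that of all genes -0.07. Among the 6 was Rpl22l1, the paralogue of Rpl22, with 20.4, 11.7 and 27.2 CPM in controls (counts scaled to a common library size) and 3.20 and 3.23 with LPS 4 h. These levels came from 20, 10 and 27 counts in controls and only 3 in each LPS 4 h library. The groups of Rpl22l1 did not overlap (log2 fold change -2.60 ± 0.54 SE, adjusted p = 3.93e-04), and it passed the test under every alternative run. Rpl10a, a protein of the L1 stalk of the large subunit, went from 59.8 to 81.6 CPM in controls to 23.5 and 36.6 (-1.24 ± 0.32, adjusted p = 0.00290). Rpl3, which lies near the peptidyl transferase centre, went from 484 to 535 CPM to 214 and 281 (-1.05 ± 0.29, adjusted p = 0.00627). Rps4x, Rps16 and Rpl10 were the other 3, at -1.11, -0.96 and -0.94. The highest member was Rpl24, which forms a bridge between the subunits, at 0.34 (adjusted p = 0.54).

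This count depends on the scaling. With total counts alone, 59 members were lower at 4 h (median -0.96), since the median of all genes then moved to -0.64. Members were below the median of all genes by 0.30 with TMM and by 0.32 with total counts. Scaling moves all genes of a library together, so these near-equal gaps were set in advance. By the alternatives, only Rpl22l1 of the 6 kept its call in all of them: without LPS 4 h number 1 the count was 1, and without LPS 4 h number 2 or without control number 1 or 4 it was 3. At 48 h, 1 member was lower than in controls against 8.29% of all genes: Rpl3, at 202 CPM in the 1 library (-1.34 ± 0.39, adjusted p = 0.0113). Total counts alone gave 43 (median -1.13, with the median of all genes at -0.58). With the library kept apart put back, none was called by edgeR, and 9 had an unadjusted p under 0.05.

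DMM or succinate without LPS changed no member beyond the spread. For DMM against control, 0 of 81 members were called by edgeR, 1 had an unadjusted p under 0.05, and DESeq2 also called 0; 0.235% of all genes were called lower. The members' median was -0.26, with 80 of 81 below 0, where the median of all genes was 0.02, with 3282 of 6812 below 0. The lowest members were Rps25 at -0.55 and Rpl36al at -0.54 (adjusted p = 0.66 and 0.42). For succinate against control, 0 members and 0% of genes were called by edgeR, no member had an unadjusted p under 0.05, and DESeq2 called 0 members (median -0.15). For DMM against succinate 0 members were called by edgeR and DESeq2, with none under an unadjusted p of 0.05 by edgeR and 0.117% of all genes lower (median -0.11). With the number, or numbers 1 and 3 against 2 and 4, as a block among the unstimulated libraries, each of these counts stayed 0. These contrasts share libraries, and a missed threshold does not show equal levels.

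DMM before LPS gave the main change. At 4 h, 71 of 81 members were lower in DMM then LPS than in LPS, and 0 were higher, where 10.5% of all genes were lower and 3.54% higher. The calls took in 43 of 49 large and 28 of 32 small subunit members. The median log2 fold change was -2.26 against 0.04 for all genes. In 79 members both DMM libraries lay below both LPS libraries. Such separation was not counted over all genes, so this count has no background to stand against. The libraries were 2 against 2, and the spread came from all 20 libraries of the model. Without DMM then LPS 4 h number 1 the count was 48, and Rplp1, Rpsa, Rpl4 and Rps27a, described below, were among the members that lost their call.

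The members with the lowest fold changes were Rpl3, Rps23, Rpl38 and Rps7. Rpl3 had 214 and 281 CPM with LPS 4 h and 13.5 and 15.8 with DMM then LPS 4 h, from 24 and 17 counts. Controls had 484 to 535, DMM alone 350 to 497, and succinate then LPS 4 h 218. Rpl3 was thus low in both DMM then LPS libraries and in no other 4 h library (-4.08 ± 0.37, adjusted p = 2.32e-08). Rps23, a small subunit protein of the decoding centre, had 140 and 127 CPM with LPS and 9.55 and 13.9 with DMM then LPS (-3.53 ± 0.44, adjusted p = 3.16e-06). Rpl38, whose loss in the Tail-short mouse disturbs the skeleton, had 57.6 and 61.3 CPM against 4.50 and 8.36 (-3.27 ± 0.55). Rps7, needed for small subunit assembly, had 129 and 168 CPM against 12.9 and 19.5 (-3.22 ± 0.44). In none of these members did the groups overlap.

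Members chosen as examples of known roles also fell. Rps6, the substrate of S6 kinase, had 199 and 235 CPM with LPS and 22.5 and 27.9 with DMM then LPS (-3.11 ± 0.41, adjusted p = 5.87e-06). Rpl5 and Rpl11, which with 5S rRNA can bind the p53 regulator Mdm2, were at -2.16 and -2.29. Rpl10, which joins the large subunit late, was at -2.32, and Rpl10a at -2.81 from 12 counts in all with DMM then LPS. Rpl13a, known from interferon-gamma control of translation in myeloid cells, was at -2.004, and Rps19, mutated in Diamond-Blackfan anaemia, at -2.60. Rps27a, made as a fusion with ubiquitin, was at -2.03 and also lost its call without LPS 4 h number 2. Each of these passed the test by edgeR with BH adjustment (adjusted p = 0.00427 or less).

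The stalk proteins recruit translation factors to the large subunit, and their changes were not tested against each other. Rplp2 had 188 and 197 CPM with LPS and 32.0 and 37.1 with DMM then LPS (-2.48 ± 0.38, adjusted p = 4.21e-05). Rplp1 had 286 and 310 against 83.7 and 156 (-1.32 ± 0.42, adjusted p = 0.0320). Rplp0, the base of the stalk, had 990 and 954 against 498 and 789 (-0.60 ± 0.38, adjusted p = 0.31). All 3 were lower in both DMM libraries, and Rplp0 did not pass the test. Rpl4, which lines the exit tunnel, went from 1376 and 1468 CPM to 430 and 570 (-1.51 ± 0.37, adjusted p = 0.00523). Rpsa, also known as the laminin receptor, was at -1.24 (adjusted p = 0.0191). Rplp1 and Rpsa also lost their call without either LPS 4 h library.

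Beside Rplp0, the members that did not pass were Rpl22, Rpl22l1, Rpl39, Rpl41, Rpl7l1, Rps2, Rps24, Rps27 and Rps27l. Rpl39, Rps27 and Rps24 had changes as large as others that passed (-2.37, -1.92 and -1.62) with wider errors. In Rps27 the LPS libraries had 40.5 and 91.4 CPM and the DMM then LPS libraries 13.5 and 22.3 (SE 0.76). Rpl41, the shortest ribosomal protein, was at -1.06 and Rps2 at -0.99 (adjusted p = 0.10 and 0.087).

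The paralogue pairs are given side by side, and differences within a pair were not tested. Rpl7 had 186 and 283 CPM with LPS and 56.8 and 45.5 with DMM then LPS (-2.19 ± 0.42, adjusted p = 5.07e-04). Its paralogue Rpl7l1 had 37.3 and 37.6 against 41.6 and 52.9 (0.32 ± 0.29, adjusted p = 0.51), and it was the 1 member whose groups did not overlap in the upward direction. Rps27l, a p53 target that pairs with Rps27, had 24.5 and 44.1 against 37.7 and 39.0 (0.16 ± 0.50, adjusted p = 0.87). Rpl22 had 41.6 and 76.4 against 33.2 and 25.1 (-0.998 ± 0.57, adjusted p = 0.27), and Rpl22l1 had 3.20 and 3.23 against 2.81 and 1.86, from 6 and 7 counts. Rpl36a and Rpl36al, whose proteins are nearly identical, both passed the test and fell by 3.18 and 2.65 on the log2 scale. Reads of such pairs can be shared, so each value of a pair is uncertain.

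**Figure D2:**
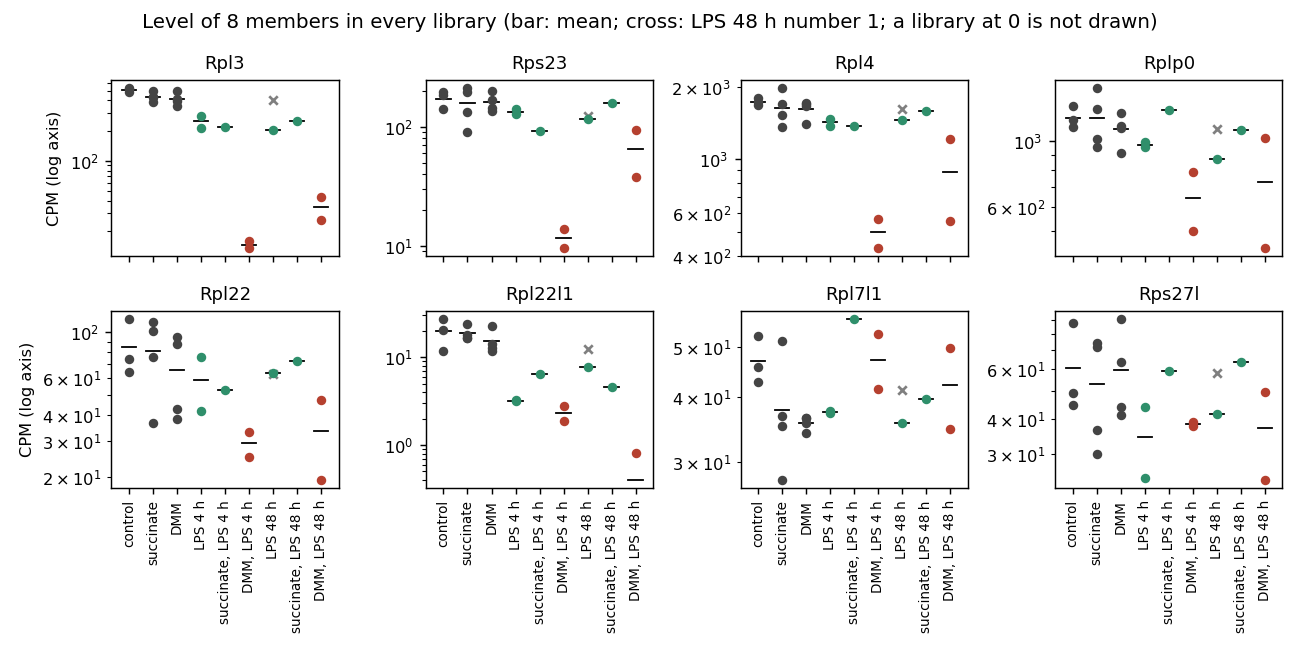
Level of 8 members in every library (y axis, CPM after TMM scaling, log axis) by group (x axis); points are libraries, bars are group means, the cross is the library kept apart, and a library at 0 is not drawn. In DMM then LPS 4 h Rpl3 sits at 13.5 and 15.8 CPM, below every other group, while Rpl7l1 at 41.6 and 52.9 lies above both LPS 4 h libraries.

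The members were also split by the longest pyrimidine run in the windows described above, over all annotated starts of a gene. Such a run need not begin at the start, so this is not a split by TOP tract. Rps27l, whose run of 9 bases lay before the start, counts among those with at least 8. Of the 26 tested members with a run of at least 8 bases, 21 were called lower and the median was -2.13; of the 34 with a shorter run, 29 were called lower and the median was -2.35. Across the 81 members, the change was weakly related to exon length (Spearman rho 0.16) and to the level in controls (rho 0.12). These points share the same libraries and are a description.

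The LPS response differed with DMM by the test of the difference itself. For the interaction of DMM and LPS at 4 h, 54 members were lower and 0 higher, against 4.49% of all genes lower and 0.940% higher (median -2.002). All 54 were among the 71, but both contrasts hold the same 4 h libraries, so this overlap is not a separate result. The strongest of the 54 were Rpl3 (-3.78 ± 0.43, adjusted p = 6.37e-06) and Rps18 and Rps23 (both adjusted p = 1.92e-04). This count rests on few libraries: without DMM then LPS 4 h number 1 it was 9, although the median stayed at -1.79, and without LPS 4 h number 2 it was 35. With the library kept apart put back, it was 34. Against DMM alone, DMM then LPS 4 h was lower in 75 members (median -2.39) where 18.3% of all genes were lower. Of the other 6, Rpl7l1 was at 0.39 and Rplp0 at -0.77 (adjusted p = 0.23 and 0.076).

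Succinate before LPS gave no call. In succinate then LPS 4 h against LPS 4 h, 0 of 81 members were called by edgeR, none had an unadjusted p under 0.05, and DESeq2 called 0, where 0.499% of all genes were lower and 0.528% higher (median -0.09). The lowest member was Rpl7a (adjusted p = 0.66) and the highest Rpl22l1, at 0.98 (adjusted p = 0.91). Set directly against DMM then LPS 4 h, succinate then LPS 4 h was higher in 62 members and lower in 0, with 6.50% of all genes higher and 1.07% lower (median 2.15). Without DMM then LPS 4 h number 1 this was 21. In succinate then LPS 48 h against LPS 48 h, with 1 library each, 0 members were called by edgeR, none under an unadjusted p of 0.05, and 0 by DESeq2 (0.220% of all genes lower, median 0.27). Where a group had 1 library, its spread was taken from the other groups.

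**Figure D3:**
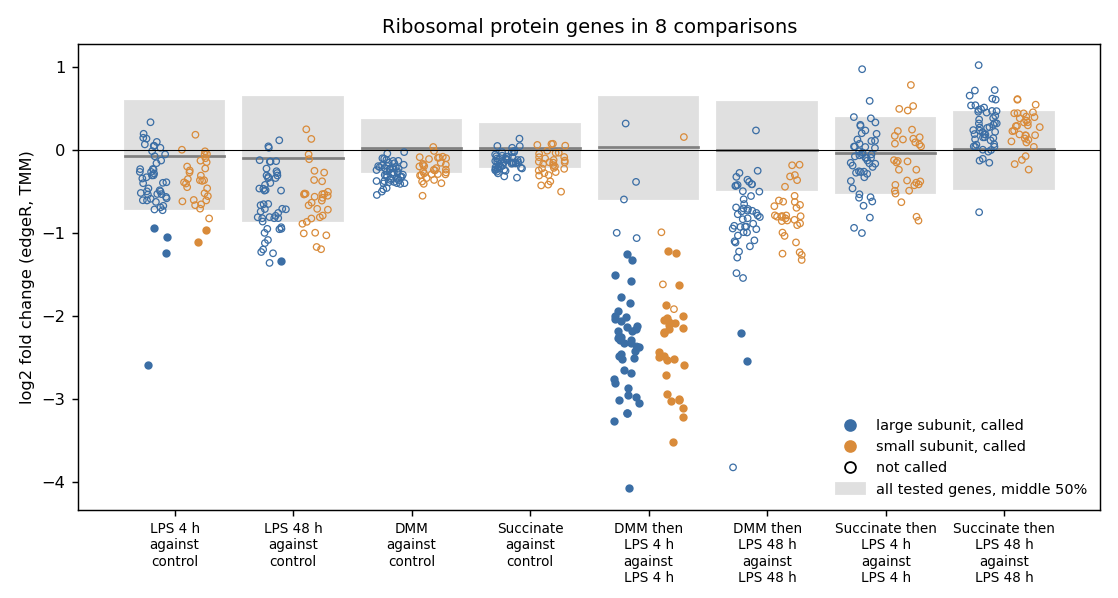
Log2 fold change of each tested member (y axis) in 8 comparisons (x axis), large and small subunit side by side; filled points passed the test, open points did not, and the grey band holds the middle 50% of all tested genes. In DMM then LPS 4 h against LPS 4 h 71 members are filled and the medians are -2.29 (large) and -2.17 (small).

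At 48 h the same contrast had fewer calls and its libraries differed. Against LPS 48 h, 2 of 81 members were lower in DMM then LPS, where 0.661% of all genes were lower and 0.147% higher, and the members' median was -0.79. Rpl3 had 202 CPM in the LPS library and 25.9 and 43.2 with DMM then LPS (-2.55 ± 0.39, adjusted p = 2.50e-04). Rpl10a had 36.7 against 6.48 and 9.39 (-2.21 ± 0.48, adjusted p = 0.0159). Rpl12, which lies at the base of the stalk, had 123 against 30.0 and 54.5 (-1.54 ± 0.40, adjusted p = 0.053). In Rpl22l1 the 2 DMM libraries held 1 count together against 8 in the LPS library, a ratio of 17.8 with a 95% counting interval of 2.38 to 788. Rpl7l1 was at 0.24 and Rplp0 at -0.25 (adjusted p = 0.83 and 0.86).

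The 2 libraries of DMM then LPS 48 h gave different counts. Without number 2, 45 members were lower than in LPS 48 h (median -1.67), and without number 1 it was 1 (median -0.24). Number 1 had a TMM factor of 1.26 and number 2 of 0.717. Rpl3 stayed called in both cases, and Rpl10a was not called without number 1 (adjusted p = 0.18). Against DMM alone, 52 members were lower (median -1.05, 15.4% of all genes lower), and Rpl3 (-3.59 ± 0.34), Rpl10a (-2.95 ± 0.37) and Rpl12 (-2.25 ± 0.32) led. All 52 were among the 75 that were lower at 4 h, but both contrasts hold the same DMM libraries, so this overlap is not a separate result. Without number 1 the count of 52 became 11, and without number 2 it was 76. For the interaction of DMM and LPS at 48 h, 1 member was lower, Rpl3 (-2.25 ± 0.45, adjusted p = 0.0172; 0.323% of all genes lower and 0.0734% higher), and without number 2 it was 11. Without both DMM then LPS libraries numbered 1, left out after seeing the data, Rpl3 was no longer called there (adjusted p = 0.066).

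Between the times, 10 members were higher in DMM then LPS 48 h than in DMM then LPS 4 h, against 0.837% of all genes (median 1.25). Among them were Rps23 (2.50 ± 0.44, adjusted p = 0.00186), Rps7, Rpl6 and Rps6, and 7 of the 10 belong to the small subunit. This count went from 0 without DMM then LPS 48 h number 2 to 57 without its number 1. Without DMM then LPS 4 h number 1 it was 0 as well, and without its number 2 it was 1. The difference between the DMM effects under LPS at 48 h and 4 h was tested directly: 0 members and 0% of genes were called by edgeR. DESeq2 also called 0 members. By edgeR, 46 of 81 members and 357 of all 6812 genes had an unadjusted p under 0.05, with medians of 1.47 and 0.10. The changes at 4 h and at 48 h share no library, but the change at 48 h rests on 1 LPS library. They were below 0 in 79 of 81 members at 4 h, in 80 at 48 h and in 79 at both times. Of all 6812 genes, 3263 were below 0 at 4 h and 3361 at 48 h. Genes below 0 at both times were not counted over all genes, so the joint count has no background. Members share the same libraries and are not independent of each other. The correlation of these changes across members was 0.24 (Pearson) and 0.42 (Spearman). Without the paralogues Rpl22l1, Rpl7l1 and Rps27l, left out after their values were seen, it was 0.48 and 0.43.

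**Figure D4:**
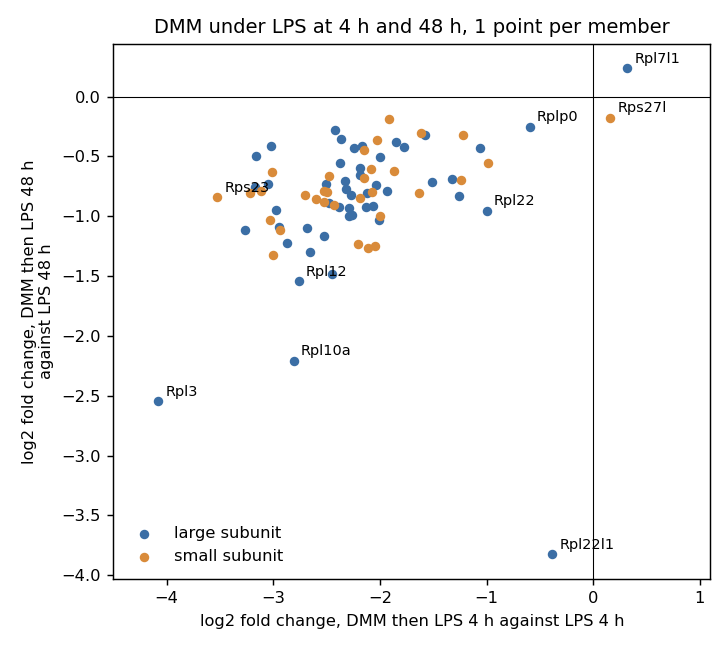
Log2 fold change of DMM then LPS against LPS at 4 h (x axis) and at 48 h (y axis), 1 point per tested member, coloured by subunit. The medians are -2.26 at 4 h and -0.79 at 48 h; Rpl3 and Rpl10a are low at both times and Rpl7l1 lies above 0 at both.

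Summed counts shifted towards the large subunit in DMM then LPS. The ratio of large to small subunit counts was 1.23 to 1.36 in the unstimulated libraries, 1.32 and 1.33 with LPS 4 h, and 1.24 to 1.33 in the other LPS libraries without DMM. It was 1.51 and 1.49 with DMM then LPS 4 h, and 1.43 and 1.38 at 48 h. These 4 libraries lay above all others. The median change of single members at 4 h was -2.29 for the large and -2.17 for the small subunit, a difference that was not tested. Rplp0, Rpl4, Rpl23 and Rpl8, a set chosen after seeing the values, held 44.5% and 44.3% of large subunit counts with DMM then LPS 4 h and 33.8% and 33.6% with LPS 4 h. Without Rplp0 alone, the ratio at 4 h was 1.25 and 1.20 against 1.22 in both LPS 4 h libraries. At 48 h it was 1.26 and 1.24 with DMM then LPS, 1.14 with LPS and 1.18 with succinate then LPS. Unstimulated libraries then had 1.14 to 1.26.

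Levels per exon length differed widely among the members in controls. Exon lengths were taken from GENCODE vM21 for all 81 members, as the union of exons of their protein-coding transcripts, and were 0.383 to 5.395 kb. Among the high members were Rpl23 at 1334 CPM per kb (1170 to 1479 over 3 libraries) and Rpl4 at 1125 (1088 to 1162), which did not overlap. Rpl7l1 was lowest at 14.97 (13.6 to 16.7), then came Rps15a at 23.7 and Rpl22l1 at 35.3. The place of Rps15a rests on its exon length of 5.395 kb. Its level was 128 CPM, against 47.0 for Rpl7l1 and 19.8 for Rpl22l1. A union of exons can be longer than the messages present, which were not measured, so these ranks depend on the annotation. Rps27l stood at 105 (77.4 to 151).

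Other genes of translation were lower in the same libraries. The counts below stand against 10.5% of all genes called lower in this contrast. Of 17 genes known to carry TOP tracts, 13 were lower and 0 higher in DMM then LPS 4 h against LPS 4 h (median -1.29). The list holds translation factors and also genes of other roles, such as Nap1l1, Hnrnpa1 and Npm1. Eef1a1, the elongation factor that delivers aminoacyl-tRNA, had 3301 and 3376 counts with LPS and 308 and 263 with DMM then LPS (-4.10 ± 0.45, adjusted p = 4.85e-07). Gnb2l1, the small subunit scaffold protein RACK1, was at -2.74, Eef1b2, an exchange factor for Eef1a1, at -2.71, and Naca, of the nascent chain complex, at -2.37. Fau, whose fusion protein yields a small subunit protein, was at -1.72 (adjusted p = 0.00261). Of 28 tested ribosome biogenesis genes 3 were lower (Eif6, Nhp2 and Npm1, which is also among the 17), a share near that of all genes, with a median of 0.09. Of 14 genes that control ribosomal protein synthesis 1 was lower, Eif4ebp1 (-0.99 ± 0.33, adjusted p = 0.0439), a target of mTORC1 and inhibitor of the cap-binding protein. Of 58 mitochondrial ribosomal protein genes 0 passed by edgeR, and the median was 0.17. The lists were chosen with results of these data known.

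**Figure D5:**
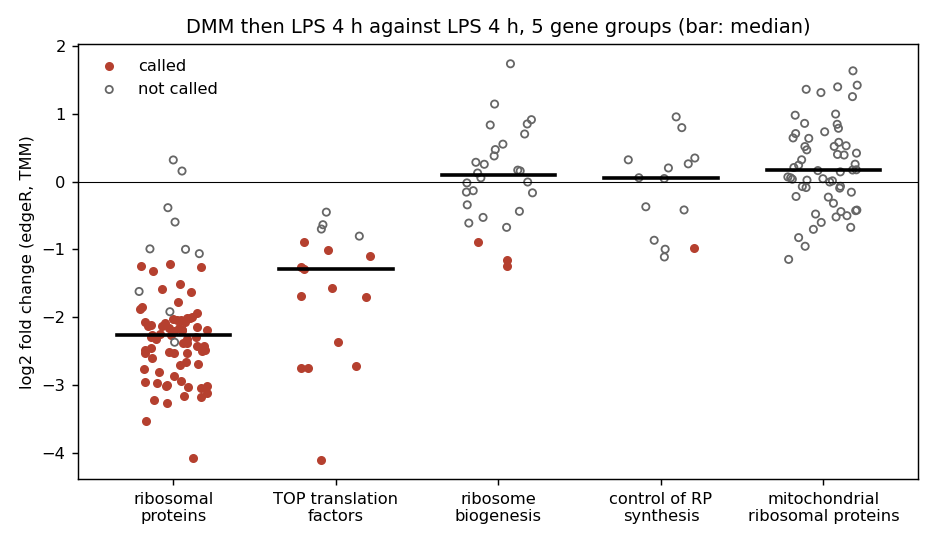
Log2 fold change in DMM then LPS 4 h against LPS 4 h (y axis) of the ribosomal protein genes and 4 related gene lists (x axis), 1 point per tested gene, filled where the gene passed the test; bars are medians. The ribosomal protein genes (-2.26) and the list labelled TOP translation factors, which also holds other TOP genes (-1.29), lie below 0, and the other 3 medians lie between 0.05 and 0.17.

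Several measures differed between the same libraries. Fth1, the ferritin heavy chain, took 11.02% and 10.59% of counts with DMM then LPS 4 h and 5.25% and 5.61% with LPS 4 h. The 10 most abundant genes took 49.2% and 51.6% against 33.0% and 34.7%. Mitochondrially encoded genes took 1.28% and 1.19% against 1.41% and 1.97%, and TMM factors were 1.17 and 0.893 against 0.786 and 0.726. Among genes outside the members, those with exons under 1 kb had a median of -0.72 and 24.4% were lower, while those of 1 kb or more had a median of 0.10 and 8.56% lower; 41 of 81 members are under 1 kb. Of the macrophage markers, 3 of 7 were called lower, against 10.5% of all genes: Itgam at -2.04, Emr1 at -1.66 and Csf1r at -1.43. Fcgr1, Mertk and Lyz2 were at -0.87, -0.25 and -0.06 and Cd68 at 0.02, and did not pass. Without TMM, in CPM of total counts as used from here on, Csf1r had 2881 and 2885 against 6114 and 5581. On that scale Lyz2 had 86106 and 98129 against 68909.8 and 75558, and Cd68 had 299 and 315 against 217 and 237. The neutrophil list summed to 229 and 283 CPM against 33.2 and 49.6, nearly all from S100a8, with S100a9 at 0 in these 4 libraries. In the 1 library of succinate then LPS 4 h, S100a8 was at 417 CPM. The fibroblast list summed to 46.5 and 29.5 against 13.3 and 4.65, mainly from Dcn with 64 and 32 counts against 7 and 5. The part of these measures in the result was not tested. The members' median lay 2.30 below the median of all genes with TMM and 2.31 below it with total counts alone. Scaling shifts all genes of a library alike, so this gap could hardly change and does not test the scaling.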

How the data were processed

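Full-length cDNA (a SmartSeq2 variant, no molecular identifiers) was sequenced from 21 libraries. The authors deposited raw read counts per gene; the submitters' processing notes name TopHat2, Bowtie, HTSeq and edgeR, without versions, and the genome build was not given in these sources. Libraries were grouped by label, and 20 in 9 groups were fitted, with LPS 48 h number 1 kept apart. A gene was tested if at least 2 libraries reached the CPM that 10 reads make in the median library and its total was at least 15 (6812 genes). edgeR 4.0.16 (R 4.3.3) gave TMM scaling and robust quasi-likelihood tests with 11 residual degrees of freedom, adjusted by Benjamini-Hochberg at 0.05, and was tested on simulated data. Members and lists were chosen with earlier results of these data known. Named members were those called (at most the 12 with the smallest adjusted p per comparison), preset role examples and paralogue pairs, and the 3 highest and 3 lowest changes per comparison; members that did not pass, and those ranked by length, were named after their values were seen. Alternatives were other scalings, no filter, DESeq2 1.42.0, all 21 libraries, a replicate block, leave-outs and, added after seeing the data, pseudogene rows summed into members, blocks by number among the unstimulated libraries, and leaving out both DMM then LPS libraries numbered 1.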

Additional observations from a re-analysis of the deposited data

Results flagged for a closer look

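In DMM alone, Rpl4 was at 1397 CPM in number 1 and at 1661 to 1703 in the others, a gap above Dixon's 95% critical value. It was 1 of 52 groups of 4 libraries examined, and chance alone marks about 1 in 20 such groups. The effect of LPS differed with and without DMM by an interaction term in edgeR for 54 members at 4 h and for 1 member, Rpl3, at 48 h.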

How the results depend on the processing

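No member called in any comparison changed sign under any alternative run. With total counts alone, 59 members were lower in LPS 4 h and 43 in LPS 48 h against control, and 19 were higher in DMM then LPS at 48 h than at 4 h. Rpl24 in LPS 4 h was then at -0.26 and Rpl22l1 in DMM then LPS 4 h against LPS 4 h at 0.066. Of all genes called, those lower were then 74.9% in place of 44.8% for LPS 4 h, 65.7% in place of 39.96% for LPS 48 h, and 45.6% in place of 74.8% for DMM then LPS 4 h against LPS 4 h. The same share was 64.5% in place of 53.8% and 67.1% in place of 49.9% for DMM then LPS 4 and 48 h against DMM, 70.8% in place of 81.8% for DMM then LPS 48 h against LPS 48 h, 62.4% in place of 82.7% and 62.9% in place of 81.5% for the interactions, 34.0% in place of 14.1% for succinate against DMM before LPS, and 70.6% in place of 53.3% of few calls for DMM against succinate. With all 21 libraries, the counts were 3 for LPS 4 h, 0 for LPS 48 h, 4 for DMM then LPS 48 h against LPS 48 h, 1 higher at 48 h than at 4 h after DMM, and 34 and 2 for the interactions at 4 and 48 h. With no filter they were 4 for DMM then LPS 48 h against LPS 48 h, 35 higher at 48 h than at 4 h, 2 for the interaction at 48 h and 3 higher for the difference of the DMM effects. DESeq2 gave 6 for DMM then LPS 48 h against LPS 48 h and 29 higher at 48 h than at 4 h. Without both DMM then LPS libraries numbered 1, these were 1 against LPS 48 h, 9 against DMM and 0 for the interaction at 48 h, with Rplp0 at 0.25. Without paralogues and fusion genes, the ratio of subunits was 1.62 in DMM then LPS 4 h, 1.48 at 48 h and 1.35 in LPS 4 h, and the share was 0.513%, 1.47% in LPS 4 h, 1.41% in LPS 48 h, and 1.39% and 1.504% in succinate then LPS 4 and 48 h. The cause of these shifts was not tested.

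Leaving out 1 library gave 1 to 5 members for LPS 4 h, 1 to 3 for LPS 48 h, 48 to 71 for DMM then LPS 4 h against LPS 4 h, 1 to 45 at 48 h, 11 to 76 against DMM at 48 h, 0 to 57 higher at 48 h than at 4 h, 9 to 59 and 1 to 11 for the interactions, 0 to 14 for their difference, and 21 to 52 for succinate against DMM before LPS. Rps27l ranged from -0.20 to 0.64 at 4 h, and at 48 h Rpl7l1 from -0.0015 to 0.45 and Rplp0 from -0.96 to 0.21. With a replicate block among the stimulated libraries, 77 members were lower in DMM then LPS 4 h in place of 71. The numbers of LPS 4 h and DMM then LPS 4 h did not deviate together (r = 0.0044 over 6812 genes). In the unstimulated libraries r between same numbers was -0.030 to 0.33, over 0.1 in 6 of 10 pairs. The main fit did not take the numbers as pairs or blocks, although 1 and 3 stood apart from 2 and 4 in Spp1 and Emr1. With these numbers as a replicate block, or with 1 and 3 against 2 and 4, both added after seeing the data, members lower were 2 and 3 for LPS 48 h, 5 and 6 for DMM then LPS 48 h against LPS 48 h, and 2 and 2 for the interaction at 48 h, and 24 and 29 were higher at 48 h than at 4 h. Every other count of members stayed within 1.5 times. Depth limits Rpl22l1 and Rpl10a, with few counts in DMM then LPS, and Rpl22l1 also had few counts in LPS 4 h.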
